A study of Rattus norvegicus with 6 samples.

Results

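RNA polymerase II copies the protein-coding genes of the nucleus into messenger RNA, and its subunits are each encoded by a separate gene. The transcripts of 10 subunit genes, Polr2a to Polr2i and Polr2k, were read out in the ventral hippocampus of aged rats (22 months) and adult rats (4 months). They were taken by gene symbol from a table of 22601 genes. The complex was singled out because Polr2i had already stood out as much lower in aged rats in these libraries, so the values of Polr2i between the ages are given as a description, with no test. The question put to the data was whether Polr2i stood alone among its partners. All rats were male Sprague Dawley, an outbred strain, with no other treatment or genotype named in the labels. Of 10 rats per age that had gone through the Morris water maze, 3 of each age were drawn at random, and every one of the 6 libraries is thus its own animal.

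As background, Polr2a and Polr2b form the active centre in which RNA is made, and Polr2a carries the long repetitive tail whose phosphorylation marks the steps of transcription. Polr2c and Polr2j form the pair on which the enzyme is assembled, Polr2d and Polr2g form a stalk beside the RNA exit, and Polr2e, Polr2f, Polr2h, Polr2k and Polr2l are shared with RNA polymerases I and III. Polr2i is a small zinc-binding subunit at the edge of the enzyme, known mainly from budding yeast, where it bears on start site choice, proofreading and restart of stalled polymerase. Cells of every type, neurons and glia included, need the enzyme.

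Library totals ran from 12476758 to 15400405 counts in aged rats and from 14637811 to 15689921 counts in adult rats. Genes of hippocampal neurons were found in all 6 libraries, with Slc17a7, the vesicular glutamate transporter, between 681 and 1338 CPM (counts per 1e6 counts of a library, with library sizes scaled by TMM). The exception was Zbtb20, a transcription factor of hippocampal neurons, at 0.723 to 3.73 CPM. Transcripts of other tissues differed between libraries. Together, the 8 choroid plexus genes took 9.66 to 74.4 counts per 1e6 of a library in aged rats and 26.1 to 2156 in adult rats, the highest being adult replicate 1. The 10 liver genes took 25.4 to 269 in aged rats and 22.8 to 551 in adult rats on that scale, and were lowest in replicate 1 of both ages. The 8 skeletal muscle genes took 48.2 to 146.4 in aged rats and 147.1 to 480 in adult rats. These sums use library totals without TMM. The muscle sums of the ages nearly met, and with TMM scaling they overlap, so no separation is read. In bulk tissue, fewer cells of a type and less RNA per cell cannot be told apart.

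The promoter of Polr2i is shown because the gene shares it with a neighbour whose counts are set beside its own below. In the RefSeq annotation of the assembly GRCr8, Polr2i lies on the plus strand of chromosome 1 and Tbcb, a chaperone of tubulin folding, starts on the opposite strand with 26 bases between the genes. The promoter of Polr2d is shown beside it as the other subunit promoter with the letters CCAAT. Each window holds 250 bases before and 50 bases after the start, 5′ to 3′ on the strand of the gene, from RefSeq on GRCr8, and capitals mark CCAAT or its reverse complement ATTGG. The window of Polr2i is chr1:94610726-94611025 on the plus strand and that of Polr2d is chr18:23692328-23692627 on the plus strand.
Polr2i: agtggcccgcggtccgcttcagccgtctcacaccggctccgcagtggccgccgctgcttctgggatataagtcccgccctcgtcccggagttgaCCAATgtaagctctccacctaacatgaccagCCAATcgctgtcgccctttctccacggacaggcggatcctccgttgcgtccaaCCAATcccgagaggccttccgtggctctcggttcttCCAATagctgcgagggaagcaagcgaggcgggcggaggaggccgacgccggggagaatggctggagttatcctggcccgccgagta
Polr2d: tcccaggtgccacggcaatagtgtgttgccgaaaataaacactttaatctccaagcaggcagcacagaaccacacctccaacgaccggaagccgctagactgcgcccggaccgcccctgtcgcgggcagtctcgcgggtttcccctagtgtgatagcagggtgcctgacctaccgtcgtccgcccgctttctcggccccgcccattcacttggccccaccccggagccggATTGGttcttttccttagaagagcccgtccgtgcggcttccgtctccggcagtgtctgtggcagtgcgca
Of the 12 subunit genes looked up, counting Polr2j and Polr2l, 10 had a promoter in the table, and Polr2c and Polr2k were the others. The motifs searched, on both strands and with overlap between motifs allowed, were the CCAAT box, the letters TATAA of a TATA box, the GC box GGGCGG and the ETS family core CCGGAA. Polr2i held 4 copies of CCAAT, all on its own strand, with first bases 156, 125, 72 and 36 bases before the start. All 4 lie beyond the 26 bases between the genes and thus within Tbcb as annotated. Polr2d held 1 copy and the other 8 promoters held 0. Among 33469 promoters of the same length, 37.5% held at least 1 copy of CCAAT and 0.675% held at least 4. GGGCGG was found in all 10 subunit promoters, against 33.1% of all promoters, with 2 copies in Polr2i. Polr2i held 1 TATAA, found in 26.2% of all promoters, and 0 copies of CCGGAA, found in 15.0%. A match is a run of letters and not a shown binding site.

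All 10 subunit genes were rows of the table, and 9 passed the filter on low counts, within 14588 genes tested. Polr2h had 0 counts in every library, aged and adult. A count of 0 allows up to 3 counts per library, or 0.195 to 0.240 CPM of the library total in aged rats and 0.191 to 0.205 CPM in adult rats. The table lists Polr2h, which encodes a subunit that all nuclear RNA polymerases share, at 0 in libraries where Polr2k, another shared subunit, had 454 to 635 counts. Its values therefore say nothing about age, and whether the way reads were assigned had a part in them was not tested. RefSeq names 2 pseudogenes of Polr2h, 3 of Polr2k, 3 of Polr2l, 1 of Polr2e and 0 of Polr2i. How alike these copies are and whether reads were split with them was not tested, so the counts of Polr2h, Polr2k, Polr2l and Polr2e are uncertain.

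Counts assigned to Polr2i were nearly absent from the libraries of aged rats, and whether read assignment had a part was not tested. It had 3, 4 and 0 counts in aged replicates 1 to 3, against 71, 101 and 147 counts in adult replicates 1 to 3. These are 0.200, 0.321 and 0 CPM in aged rats, against 4.85, 6.38 and 9.80 CPM in adult rats. Every aged value lay below every adult value, as in 4.43% of all genes tested, from which nothing is read here since Polr2i was chosen for this difference. Over the groups, 7 of 43204649 counts in aged rats and 319 of 45755229 counts in adult rats were Polr2i. The aged share was 2.32% of the adult share, with an exact 95% interval of 0.927% to 4.84% that covers counting error only and not the difference between animals. The log2 fold change was -5.34 ± 0.70 (SE), from a fit across all genes with edgeR's quasi-likelihood method, aged minus adult. Each SE of a fold change, here and below, is its size divided by the square root of the F statistic of that fit. For Polr2i it restates that statistic and is no separate support. It was -6.05 without aged replicate 2 and -4.73 without aged replicate 3, the lowest and highest values with 1 library left out. Polr2i passed the filter through the adult libraries only, since a gene at its aged level in all libraries would have been left out.

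**Figure D1:**
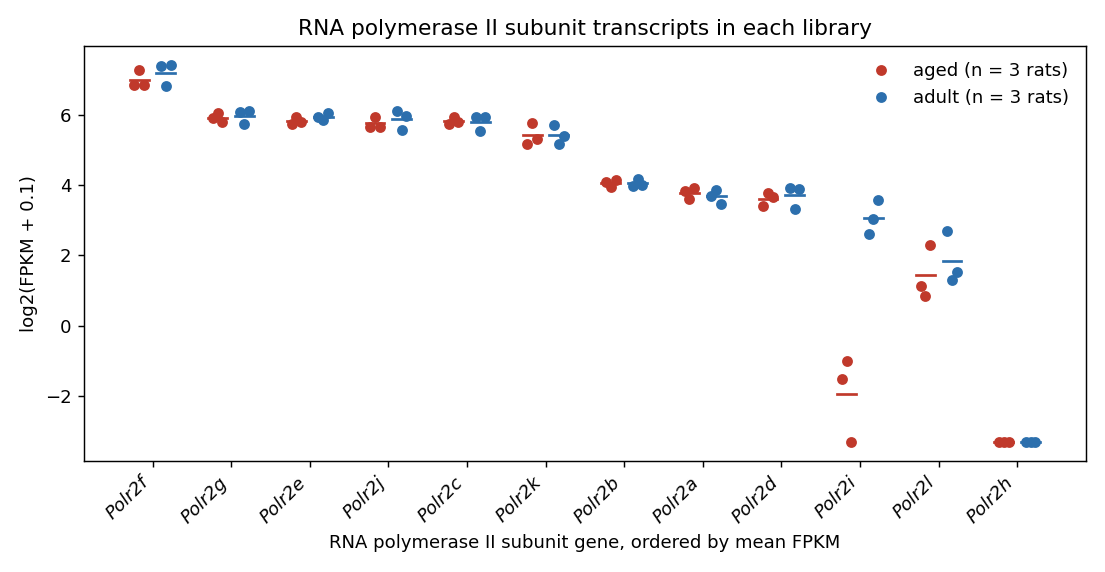
Levels of the 12 RNA polymerase II subunit genes as log2(FPKM + 0.1) in each library, with 3 aged rats (left, red) and 3 adult rats (right, blue) per gene and a line at each group's mean of the log values. Polr2i is the one gene whose groups lie far apart, with aged values of 0 to 0.401 FPKM and adult values of 6.07 to 11.9 FPKM, while Polr2h is listed at 0 throughout.

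Set against all genes tested, Polr2i had the second lowest log2 fold change of 14588, at rank 2 from the lowest. This rank and the gap that follows restate the difference for which Polr2i was chosen and are given as description only. The lowest adult CPM of Polr2i was 15.1 times its highest aged CPM. By the same measure, the next gene was MGC94199 at 3.08 times, followed by Tnfaip6 at 2.48 times. Aged values were taken as no lower than 0.240 CPM, which is 3 counts in the smallest library. In the other direction, with the same lower bound on adult values, the widest gap was 4.16 times, at LOC100361898. MGC94199 and LOC100361898 were named after their values were seen, and the pair is given by symbol only.

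Of the other subunits, none differed between the ages in this way. The 8 other subunit genes tested had log2 fold changes of -0.25 to 0.09 with standard errors of 0.11 to 0.22, 7 of them below 0 and 1 above, where 50.5% of all genes tested lay below 0. Of the 7, Polr2b and Polr2c turned to 0.01 and 0.02 when scaled by library size only. The fit called 0 of the 8 at an adjusted p under 0.05 (edgeR, Benjamini-Hochberg over all 14588 genes), and each had an adjusted p of 1.0. Over all genes 0.0% were called, and 3.45% had an unadjusted p under 0.05. Among these 8 subunits, 0 had aged and adult values that did not overlap, where 7.56% of all genes tested had such values. Overlap is thus what most genes showed, and it does not set these subunits apart. A p that misses the threshold does not show equal levels. The standard errors give the uncertainty of each value and not the smallest difference that 3 rats per age could resolve.

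**Figure D2:**
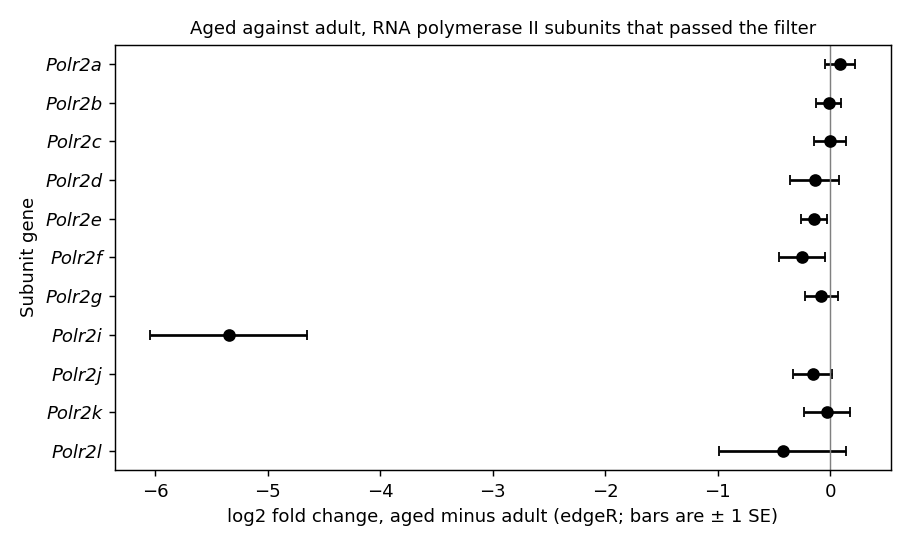
Log2 fold change, aged minus adult, of the 11 RNA polymerase II subunit genes that passed the filter, with bars of 1 standard error derived from edgeR's F statistic. Polr2i stands at -5.34, and the 8 other genes among the 10 subunits lie between -0.25 and 0.09, while Polr2j and Polr2l, which were added for comparison, stand at -0.15 and -0.42.

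The subunits of the active centre overlapped between the ages. Polr2a, the largest subunit, had 91.7, 76.7 and 92.1 CPM in aged rats, against 82.0, 91.5 and 71.4 CPM in adult rats. The ages overlapped, and the log2 fold change was 0.09 ± 0.14 (SE). Polr2b, which closes the active centre with Polr2a, had 65.8, 58.8 and 65.4 CPM in aged rats, against 59.6, 68.4 and 63.3 CPM in adult rats. Its log2 fold change was -0.01 ± 0.11 (SE), the smallest error of the 8.

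The assembly pair and the stalk overlapped between the ages as well. Polr2c, the assembly subunit, had 64.0, 72.4 and 63.3 CPM in aged rats, against 71.6, 54.0 and 74.0 CPM in adult rats. Its adult values enclosed all 3 aged values. Polr2d, a stalk subunit, had 12.05, 15.3 and 13.5 CPM in aged rats, against 16.9, 10.9 and 17.0 CPM in adult rats. Adult replicate 2 was the lowest of the 6, and the log2 fold change was -0.14 ± 0.22 (SE). Polr2g, the partner of Polr2d in the stalk, had 71.6, 76.5 and 61.3 CPM in aged rats, against 78.1, 61.3 and 81.4 CPM in adult rats. The lowest values of Polr2g at each age came from aged replicate 3 and adult replicate 2, and the log2 fold change was -0.08 ± 0.15 (SE).

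The subunits shared with polymerases I and III overlapped between the ages too. Polr2e, at the jaw of the enzyme, had 88.0, 98.7 and 86.4 CPM in aged rats, against 99.6, 91.8 and 110.2 CPM in adult rats. Aged replicate 2 lay within the adult range and the others below it, and the log2 fold change was -0.14 ± 0.12 (SE). Polr2f had 56.2, 73.3 and 52.4 CPM in aged rats, against 79.1, 52.7 and 83.8 CPM in adult rats. Adult replicate 2 lay among the aged values, and the log2 fold change of -0.25 ± 0.20 (SE) was the lowest of the 8. Polr2k, a small zinc-binding subunit like Polr2i, had 30.2, 44.8 and 31.5 CPM in aged rats, against 43.4, 29.1 and 35.9 CPM in adult rats. The highest value of Polr2k was in an aged rat and the lowest in an adult rat.

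Both remaining subunits of the enzyme, outside the list of 10, were looked up as well. Polr2j, the partner of Polr2c, averaged 39.7 ± 5.10 CPM in aged rats and 44.1 ± 8.52 CPM in adult rats (SD, n = 3 each), with overlapping groups and a log2 fold change of -0.15 ± 0.17 (SE). Polr2l, another zinc-binding subunit that all nuclear polymerases share, was counted low throughout, with 12, 8 and 28 counts in aged rats, against 35, 14 and 16 counts in adult rats. Its groups overlapped, and its log2 fold change of -0.42 ± 0.56 (SE) came with the widest error after Polr2i. Both had an adjusted p of 1.0 by edgeR over all genes.

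Setting Polr2i against its partners inside each library removes scaling that all genes share. Near 0 counts, as for Polr2i in aged rats, a log ratio still depends on depth and on the pseudocount. The FPKM of Polr2i, which is per length of gene, was 0.545%, 0.691% and 0% of the median FPKM of the 8 other detected subunits in aged replicates 1 to 3. It was 10.6%, 19.5% and 22.8% of that median in adult replicates 1 to 3. The difference of log2(FPKM + 0.1) between Polr2i and the mean of the other 9 genes averaged -6.19 ± 1.19 in aged rats and -1.20 ± 0.51 in adult rats (SD, n = 3 each). These 9 include Polr2h at 0, which lowers their mean in every library. Both averages thus put Polr2i closer to its detected partners than it was. The aged mean was thus -4.99 relative to the adult mean on the log2 scale, and with a pseudocount of 1 the figure was -2.92. The aged and adult values of this difference did not overlap, which follows from the values of Polr2i above and adds no separate observation.

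In levels per length, Polr2i stood in adult rats near the lower of its partners. Over the 6 libraries Polr2f was the highest, at a mean of 140.5 FPKM and a range of 113 to 173 that did not reach the next gene. Polr2g, Polr2e, Polr2j and Polr2c followed at means of 62.3, 59.5, 57.5 and 57.1 FPKM, and the range of each overlapped that of its neighbour in the order. Polr2k came next at 43.8 FPKM, its range overlapping that of Polr2c. Polr2b at 16.6, Polr2a at 13.3 and Polr2d at 12.8 FPKM formed a lower step, Polr2b lying above Polr2a without overlap. Polr2i averaged 0.215 ± 0.202 FPKM in aged rats and 8.68 ± 2.98 FPKM in adult rats (SD, n = 3 each). In adult replicate 3 it stood at 11.9 FPKM, above Polr2a at 11.0 FPKM there, and its range overlapped that of Polr2d. Polr2l, at a mean of 3.36 FPKM, overlapped with Polr2i, and Polr2h was listed at 0. These levels use the gene lengths built into the authors' FPKM, such as 799 bases for Polr2i and 6323 bases for Polr2a.

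The spread between animals of one age was larger in Polr2i than in the 8 other subunits tested, and largest in adult rats in Polr2l. The coefficient of variation of CPM among the 8 other subunits was 6.19% to 22.7% in aged rats and 6.90% to 23.4% in adult rats. For Polr2i it was 36.1% in adult rats, where counting alone would give 9.70%, and for Polr2l it was 56.4% in aged rats and 56.8% in adult rats. The biological coefficient of variation fitted over all genes was 23.4%. For Polr2i in aged rats counting alone would give 65.5%, and the 3 values there cannot be told from each other at this depth.

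A second pattern ran through the subunits between libraries of the same age, and was picked out after the values had been seen. Each value here is a log2 CPM relative to the gene's own average over the 6 libraries. Polr2a and Polr2b, the longest transcripts, averaged 0.090, -0.119 and 0.089 in aged replicates 1 to 3, against -0.061, 0.117 and -0.117 in adult replicates 1 to 3. Polr2c, Polr2d, Polr2e, Polr2f, Polr2g and Polr2k averaged -0.136, 0.152 and -0.159 in aged rats, against 0.192, -0.251 and 0.203 in adult rats. In aged replicates 1 and 3 and in adult replicate 2, the long pair lay above its average while the shorter group lay below, and in the other 3 libraries the order was turned round. All 6 shorter subunits were below their own average in aged replicate 3 and adult replicate 2, and 5 of 6 were in aged replicate 1, the exception being Polr2g.

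Ribosomal protein genes, another group of short transcripts, moved beside the shorter subunits. On the same scale the 21 ribosomal genes tested averaged -0.301, 0.324 and -0.357 in aged replicates 1 to 3, against 0.224, -0.038 and 0.148 in adult replicates 1 to 3, with the same signs as the shorter subunits in each library. All 21 also had a log2 fold change below 0, aged minus adult, with a median of -0.15 and 0 called by edgeR at an adjusted p under 0.05. The part of transcript length in the subunit values was not tested. Whether Polr2i shared this pattern cannot be told. Its lowest adult value came from replicate 1 and its highest from replicate 3, and the shorter subunits were high in both. Its aged counts were near 0 in libraries where the shorter subunits were both high and low, and cannot be told from each other at this depth.

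**Figure D3:**
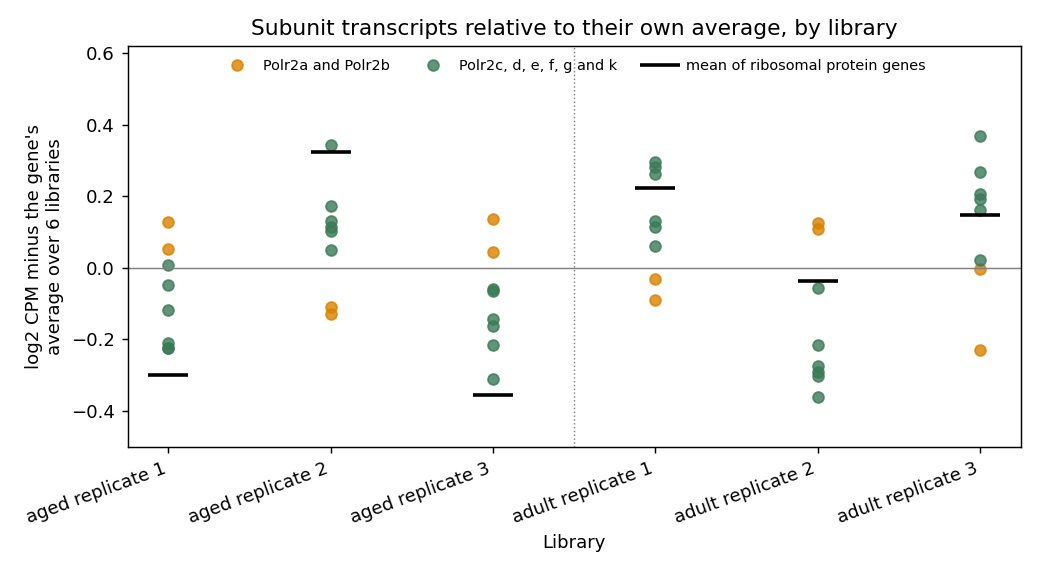
Log2 CPM of each subunit minus its own average over the 6 libraries, for Polr2a and Polr2b (orange), 6 shorter subunits (green) and the mean of 21 ribosomal protein genes (black bars), with aged rats left of the dotted line and adult rats right of it. The long pair and the shorter subunits swap sides between libraries of the same age, as in aged replicate 2 (-0.119 and 0.152) against aged replicate 3 (0.089 and -0.159).

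Genes next to Polr2i gave values of their own. Tbcb, which starts beside Polr2i on the opposite strand, had 136, 23 and 19 counts in aged replicates 1 to 3, against 11, 7 and 12 counts in adult replicates 1 to 3. All aged values lay above all adult values, the opposite order to Polr2i, with a log2 fold change of 2.59 ± 0.79 (SE) and an adjusted p of 1.0 by edgeR. Without aged replicate 1 the log2 fold change of Tbcb was 1.20 ± 0.52 (SE). Groups that do not overlap with aged rats higher were seen in 3.13% of all genes tested. Within aged rats Tbcb differed 7.61-fold, a range reached by 1.20% of the 14037 genes averaging 1 CPM or more. Ovol3, whose annotated end lies 3 bases from that of Polr2i on the opposite strand, had 0, 0 and 0 counts in aged rats, against 0, 1 and 0 in adult rats. No annotated protein-coding gene overlaps Polr2i in GRCr8. The files were made on the build Rnor_6.0, whose gene models were not used here, and whether reads of Polr2i were assigned to another gene in aged rats was not tested.

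**Figure D4:**
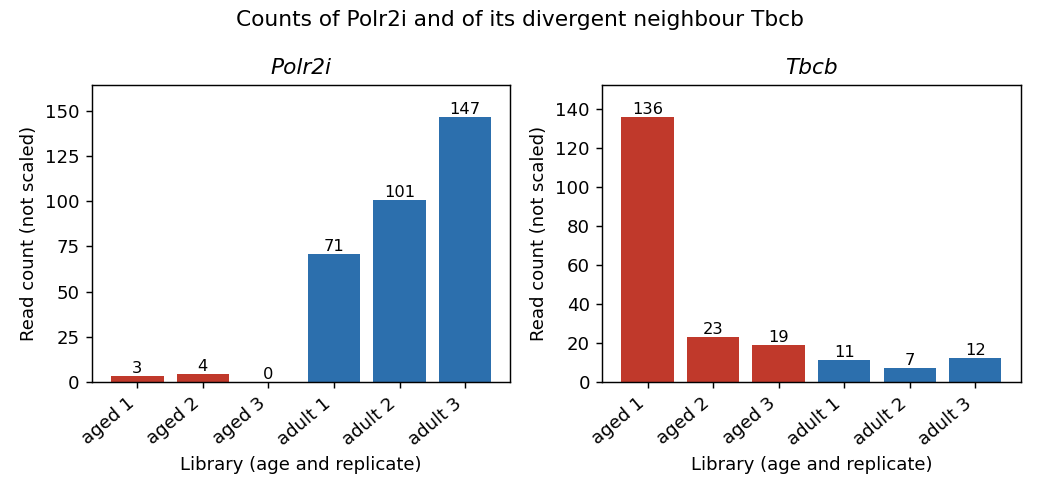
Unscaled read counts of Polr2i (left) and Tbcb (right) in 3 aged (red) and 3 adult (blue) libraries, 1 bar per library with its count above. Polr2i has 3, 4 and 0 counts in aged rats and 71 to 147 in adult rats, while Tbcb has 19 to 136 in aged rats and 7 to 12 in adult rats.

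Marker genes of other cell types and tissues were set beside Polr2i. By edgeR 0 of them, and 0 of all genes tested, were called at an adjusted p under 0.05. Per 1e6 counts, 8 myelin genes together took 6706, 7167 and 9474 in aged replicates 1 to 3, against 17393, 11907 and 11211 in adult replicates 1 to 3. Like Polr2i, the sum was lower in every aged rat than in every adult rat. All 8 myelin genes had a log2 fold change below 0, and groups did not overlap in 5 of them. Among adult rats the orders differed, since replicate 1 had the highest myelin sum and the lowest Polr2i. The 8 skeletal muscle genes took 146, 48.2 and 91.9 in aged replicates 1 to 3, against 154, 147 and 480 in adult replicates 1 to 3. The highest aged sum, 146.4 in replicate 1, nearly met the lowest adult sum, 147.1 in replicate 2, without TMM scaling. With the TMM factors of these libraries, 0.981 and 1.009, this order turns round and the ages overlap. Groups did not overlap in 2 of the 8 genes, against 7.56% of all genes tested. All 8 genes had a log2 fold change below 0, and the highest sum was in adult replicate 3, where Polr2i was highest. The 10 liver genes also had log2 fold changes below 0, with 0 of them free of overlap. Among adult rats the liver sum was lowest in replicate 1, at 22.8, where Polr2i was lowest too. All 5 choroid plexus genes tested lay below 0 as well, 2 of them without overlap. The parts of myelin-forming cells and of muscle, liver and choroid plexus transcripts in the values of Polr2i were not tested. Without adult replicate 1, the log2 fold change of Polr2i was -5.54. The choroid plexus sum was highest in that library, at 2156, and 9.66 to 74.4 in the others.

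The rest of the transcription machinery showed no shift of the size of Polr2i. The lists were chosen by function and hold subunits of RNA polymerases I and III, general transcription factors, Mediator, elongation factors, and proteins that assemble the polymerase or remove phosphates from its tail. In each list 0 genes were called higher and 0 lower by edgeR at an adjusted p under 0.05, and over all genes tested the median log2 fold change was -0.0022. Polymerase I and III subunits had 11 of 19 tested genes higher and 8 lower in aged rats, with a median of 0.04 and a range of -0.23 to 0.32. Polr3a, the catalytic subunit of polymerase III, averaged 30.8 ± 2.31 CPM in aged rats and 26.5 ± 1.60 CPM in adult rats (SD, n = 3 each) without overlap. Polr3g, a subunit of polymerase III, averaged 7.09 ± 1.25 CPM in aged rats and 5.67 ± 0.723 CPM in adult rats, with overlapping values.

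General transcription factors, which place the polymerase at promoters, had 14 of 33 genes higher and 19 lower, with a median of -0.08 and a range of -0.38 to 0.23. Taf13, a subunit of the promoter-binding factor TFIID, averaged 40.4 ± 4.35 CPM in aged rats and 51.4 ± 5.05 CPM in adult rats, and Taf5 of the same complex averaged 6.86 ± 0.937 CPM in aged rats and 8.94 ± 1.05 CPM in adult rats. In both genes every aged value lay below every adult value. Groups that did not overlap were found in 1 of 19 polymerase I and III subunits, 5 of 33 general transcription factors, 3 of 32 Mediator genes, 2 of 31 elongation factors and 3 of 28 assembly and phosphatase genes, against 7.56% of all genes tested. Mediator, which links activators to the polymerase, had 16 of 32 genes higher and 16 lower, with a median of 0.0034 and a range of -0.29 to 0.60. Its subunit Med29 averaged 37.0 ± 4.97 CPM in aged rats and 31.3 ± 1.16 CPM in adult rats without overlap, and its kinase Cdk19 averaged 68.6 ± 10.4 CPM in aged rats and 82.0 ± 13.8 CPM in adult rats with overlap.

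Elongation factors, which keep the polymerase moving, had 22 of 31 genes higher and 9 lower, with a median of 0.04 and a range of -1.17 to 0.28. Ell3, an elongation factor, averaged 2.87 ± 1.35 CPM in aged rats and 6.46 ± 2.91 CPM in adult rats with overlapping values, and gave the lowest fold change of the list. Supt16h, a histone chaperone subunit, averaged 79.3 ± 11.2 CPM in aged rats and 65.2 ± 8.77 CPM in adult rats, and its ages overlapped too. Genes of assembly, import and tail phosphatases had 17 of 28 higher and 11 lower, with a median of 0.04 and a range of -0.37 to 0.23. Ctdsp1, a phosphatase of the polymerase tail, averaged 45.4 ± 3.85 CPM in aged rats and 58.5 ± 9.95 CPM in adult rats. Uxt, a prefoldin-like protein, averaged 18.6 ± 1.08 CPM in aged rats and 23.7 ± 5.30 CPM in adult rats. Both Ctdsp1 and Uxt had overlapping ages. All 10 genes named from these lists were taken by their p and each had an adjusted p of 1.0 (edgeR).

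**Figure D5:**
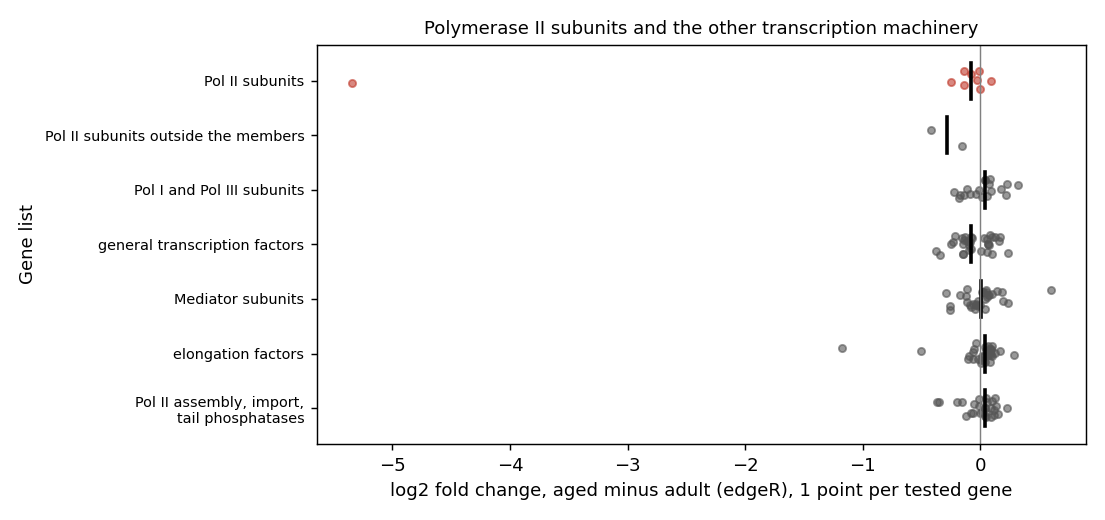
Log2 fold change, aged minus adult, of each tested gene in the polymerase II subunits (red) and the other lists of the transcription machinery (grey), with a black bar at each list's median. The isolated red point at -5.34 is Polr2i, and the next lowest gene of these lists is Ell3 at -1.17.

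The genes whose pattern over the 6 libraries was most like that of Polr2i were Rnf122, G0s2, Kctd15, Chchd5 and Sds. Their log2 CPM had a Pearson correlation with that of Polr2i of 0.976 to 0.984, over 6 libraries that include the difference between the ages and so largely restate it. Their folds were far smaller. Rnf122, a ubiquitin ligase gene, averaged 2.74 ± 0.306 CPM in aged rats and 4.76 ± 0.318 CPM in adult rats, and Chchd5, a small mitochondrial protein gene, averaged 22.9 ± 1.93 CPM in aged rats and 33.3 ± 1.78 CPM in adult rats (SD, n = 3 each). The 5 named genes with the lowest log2 fold change were Polr2i, Ttr, Ubald1, F5 and Cldn2, locus identifiers left out. Of the other 4, Ttr, Ubald1 and Cldn2 had overlapping ages, and F5 did not. Ttr, F5 and Cldn2, expressed in choroid plexus epithelium, were highest in adult replicate 1, at 2076, 9.70 and 12.4 CPM. Ubald1 had 1.13, 0.321 and 0.814 CPM in aged rats, against 1.02, 4.17 and 17.7 CPM in adult rats.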

How the data were processed

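RNA-seq counts per gene symbol were deposited by the authors as whole numbers, and FPKM were deposited by the authors as the same counts divided by a fixed gene length and the library total. Reads were mapped to Rnor_6.0, per the submitters' processing notes, and the sources used here do not name an aligner, a counting program or its strand setting. Library totals, the depth behind each value, are given with the results. Genes were filtered with filterByExpr, scaled by TMM and tested with edgeR 4.0.16 in R 4.3.3 (quasi-likelihood F test, two-sided, age as the only term, Benjamini-Hochberg over all genes tested). Alternatives were other scalings and filters, DESeq2 1.42.0, limma 3.58.1 on voom and log2(FPKM) values, a replicate block and leaving out each library. The scripts were tested on simulated data. Members, lists and the naming rule were chosen with earlier results of these data known. The rule took all subunits, the 2 smallest p per list, the neighbours of Polr2i, the 5 genes most like it and the 5 lowest fold changes.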

Additional observations from a re-analysis of the deposited data

How the results depend on the processing

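Polr2i stayed lower in aged rats under all 16 alternatives, with log2 fold changes of -6.05 to -4.73 when 1 library was left out and -5.61 to -2.96 otherwise, the weakest on log2(FPKM + 1). Against the other subunits within a library, -4.99 became -2.92 on log2(FPKM + 1) and stayed between -5.42 and -4.32 without 1 library. Leaving out Polr2h or adding Polr2j and Polr2l, both chosen after seeing the data, gave -4.99 and -4.95. The 8 other subunits lay between -0.43 and 0.18 under every alternative, with 0 called. Of 128 such values 22 changed sign, all in Polr2b, Polr2c, Polr2g and Polr2k, whose main values lay at -0.08 or nearer 0, and the cause was not tested. Polr2b was 0.01 with library size only and both FPKM scales. Polr2c was 0.01 with RLE, DESeq2, limma-voom and the replicate block, 0.005 with upper-quartile scaling, 0.02 with library size only and 0.03 with both FPKM scales. Without 1 library, Polr2b ranged from -0.05 to 0.05, Polr2c from -0.13 to 0.09, Polr2g from -0.19 to 0.01 and Polr2k from -0.22 to 0.14. Over all genes edgeR called 0 (503 at an unadjusted p under 0.05), DESeq2 called 32, and the count ranged from 0 to 1 without 1 library. Libraries with the same replicate number deviated together with correlations of -0.02, -0.06 and 0.09 over all genes tested. Such values cannot show whether some genes vary with replicate number, and the liver genes were lowest in replicate 1 of both ages. The replicate block called 0 genes, as the main fit did. Depth limits how far the 3 aged values of Polr2i can be told apart.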

Other observations

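Some other genes that nearly every cell uses were also listed at or near 0 in these libraries. Rpl8 and Rps6, which encode proteins of the cytosolic ribosome, had between 0 and 4 and between 4 and 15 counts per library, and Med22, a Mediator subunit, had 0 to 1. Ccnt1, the cyclin of the kinase that releases paused polymerase, had 3 to 10 counts per library. Genes beside the other low subunits varied as well, Clcn2 at both ages, and Tspan4 and Cd151 mainly in aged rats, as Tbcb did. Clcn2, a chloride channel gene next to Polr2h, had 586, 89 and 360 counts in aged replicates 1 to 3, against 61, 179 and 36 counts in adult replicates 1 to 3. Tspan4, a tetraspanin gene next to Polr2l, had 8, 78 and 3 counts in aged rats, against 7, 7 and 7 counts in adult rats. Cd151, on the other side of Polr2l, had 21, 111 and 98 counts in aged rats, against 30, 38 and 23 in adult rats. How many of all genes vary as much was not counted for these neighbours. These genes were picked after their values had been seen.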
